A study of Rattus norvegicus with 3 samples.

Results

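Pericytes are the contractile cells that lie on the outside of capillaries and small venules, inside the basement membrane they share with the endothelium. Endothelial cells recruit them with platelet-derived growth factor through the receptor Pdgfrb, and they are known for stabilising vessels, setting capillary tone and taking part in scar tissue when they leave the vessel wall. Their tone is relaxed by ATP-sensitive potassium channels, built from Kcnj8 and Abcc9, and by soluble guanylate cyclase, a heme enzyme that makes cyclic GMP (cGMP) when nitric oxide or carbon monoxide binds it.

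Pericytes were chosen by measured values, as cell barcodes with a UMI (unique molecular identifier, a tag that marks 1 captured RNA molecule) of at least 2 of the 5 genes Rgs5, Higd1b, Kcnj8, Abcc9 and Cox4i2. They had no UMI of Myh11 (smooth muscle), Ptprc (leukocytes), Pdgfra (fibroblasts) or Cdh5 (endothelium), and at least 500 UMIs, at least 300 genes and at most 20% mitochondrial UMIs. This rule kept 1264 of 41236 barcodes. The levels of these 9 genes are therefore a description of the choice.

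The tissue was wound skin of male wild type SD rats aged 8 to 10 weeks, made diabetic at 7 to 9 weeks with 65 mg/kg of streptozotocin, a toxin of pancreatic beta cells, and used if their blood glucose exceeded 16.7 mM. Full-thickness wounds 15 mm across received a carbon monoxide-releasing hydrogel of hyaluronic acid (CO hydrogel), the same kind of gel without carbon monoxide release (hydrogel), or nothing (untreated), and were taken after 7 days. Every group was diabetic and wounded, so no group shows intact or non-diabetic skin, and the labels do not give the number of animals behind a library. There was 1 library per group (10x Genomics 3' chemistry), so no difference between groups has a replicate check and no test was made. Intervals of levels, shares and ratios are 95% intervals and cover counting error only.

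The CO hydrogel, hydrogel and untreated libraries held 15376, 15442 and 12883 barcodes, of which 14925, 14346 and 11965 were kept, with 558, 343 and 363 pericytes in the same order, which is the order of all triplets of values below. The median pericyte had 4608.5, 5828 and 7972 UMIs, so untreated pericytes were read most deeply. Barcode sequences recur between libraries: 477 occurred in both the CO hydrogel and the hydrogel library, 600 in both the CO hydrogel and the untreated library, and 364 in both the hydrogel and the untreated library. Such sequences were carried by 29, 21 and 26 pericytes. Without them the pericyte share of barcodes was 3.73%, 2.33% and 2.97%, and values that moved are given beside the gene they touch.

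The label was checked against the cells. In a clustering of all barcodes, 1070 of the 1264 pericytes lay in a single cluster of 3176 barcodes led by Rgs5, Myh11, Ppp1r14a, Cox4i2, Des and Higd1b, called the mural cluster here because its leading genes are those of pericytes and smooth muscle together. It held 77.8% of CO hydrogel, 89.8% of hydrogel and 90.4% of untreated pericytes. A cluster led by the fibroblast genes Ccn5 and Cilp held 45 CO hydrogel, 5 hydrogel and 2 untreated pericytes, and a cluster led by the endothelial genes Sele, Ccl21 and Selp held 30, 3 and 2. More CO hydrogel pericytes than others thus lay among cells of another type.

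The levels of other cells' markers followed. Summed levels of 6 fibroblast markers were 5492 CPM (UMIs per 1000000 UMIs of the gated cells) in CO hydrogel, 1305 in hydrogel and 812 in untreated pericytes, with Pdgfra at 0 by the rule, and 1663, 616 and 572 CPM within the mural cluster. Endothelial markers summed to 73.9, 20.5 and 15.4 CPM and neutrophil markers to 351, 799 and 967 CPM. Macrophage markers summed to 639, 594 and 473 CPM and keratinocyte markers to 487, 407 and 425 CPM. Mast cell markers summed to 59.9, 8.03 and 1.75 CPM and skeletal muscle markers to 16.4, 1.34 and 0.582 CPM. T or NK cell markers summed to 3.08, 4.91 and 0.874 CPM, with no UMI of Cd3d or Cd3g in any library. Fibroblast, endothelial, mast cell and skeletal muscle material was highest in CO hydrogel pericytes, as was, by a smaller margin, macrophage and keratinocyte material. Neutrophil material was highest in untreated pericytes. Values within the mural cluster are therefore given beside many of the comparisons between libraries, and the part of this material in any difference was not tested.

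Pericytes made up 3.74% of CO hydrogel barcodes (interval 3.44 to 4.06), 2.39% of hydrogel barcodes (2.15 to 2.65) and 3.03% of untreated barcodes (2.73 to 3.36). The neutrophil gate, barcodes with a UMI of at least 2 of 5 neutrophil genes, held 5.19%, 28.0% and 61.7% of barcodes. Outside it, pericytes were 3.94% of the CO hydrogel library, 3.32% of the hydrogel library and 7.91% of the untreated library. The order of the groups changed with the total: the CO hydrogel library was highest among all barcodes and the untreated library was highest outside the neutrophil gate.

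Per barcode of the other vessel cells, pericyte barcodes were fewer in both treated libraries than in the untreated one. The endothelial gate held 1111, 748 and 316 barcodes and the smooth muscle gate 544, 490 and 229. There were 0.502 pericyte barcodes per endothelial barcode with the CO hydrogel (0.453 to 0.557), 0.459 with the hydrogel (0.402 to 0.522) and 1.15 without treatment (0.985 to 1.34). Per smooth muscle barcode there were 1.03 (0.910 to 1.16), 0.700 (0.608 to 0.805) and 1.59 (1.34 to 1.88). The untreated ratio lay above both treated ratios beyond the counting intervals, and the treated libraries overlapped each other in the ratio to endothelium but not in the ratio to smooth muscle. More of the other vessel cells, fewer pericytes and fewer that pass the rule cannot be told apart here. Barcodes with at least 2 markers that the rule left out for a barred gene were 294, 312 and 148% of the pericyte number. Of the genes that the rule used, Rgs5, a regulator of G protein signalling, stood at 653, 914 and 1055 CPM and Cox4i2, a cytochrome oxidase subunit isoform, at 696, 856 and 974 CPM, and Higd1b stood at 342, 341 and 472 CPM. The potassium channel genes stood at 479, 532 and 549 CPM (Abcc9) and 247, 269 and 327 CPM (Kcnj8).

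**Figure D1:**
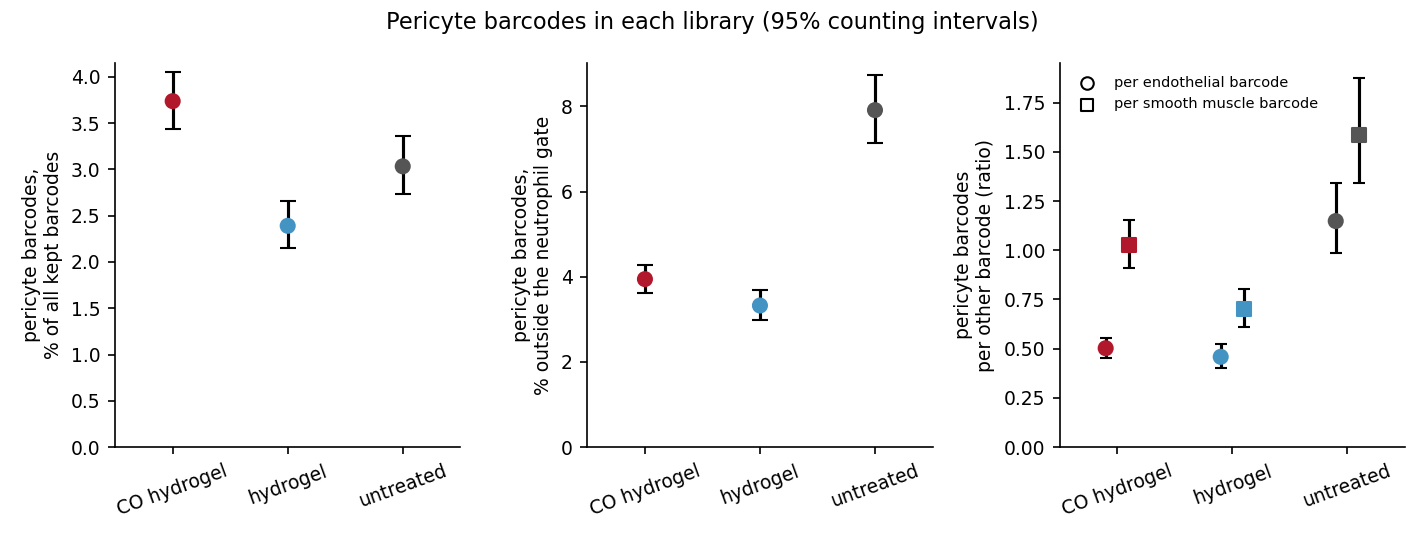
Pericyte barcodes in the CO hydrogel, hydrogel and untreated libraries (left to right in each panel), as a percent of all kept barcodes, as a percent of barcodes outside the neutrophil gate, and per endothelial (circles) or smooth muscle (squares) barcode; bars are 95% counting intervals. The untreated library is highest in the middle panel (7.91%) and in both ratios (1.15 and 1.59), but not in the left panel (3.03%).

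The edges of the rule differed between libraries. Exactly 2 of the 5 markers were seen in 171 CO hydrogel, 84 hydrogel and 38 untreated pericytes, of which 43.9%, 75% and 78.9% lay in the mural cluster. Just outside the rule, 557, 308 and 177 barcodes had 1 marker and none of the 4 barred genes, and 11.0%, 17.5% and 13.0% of them lay in the mural cluster. All 5 markers were seen in 121, 107 and 194 pericytes. A further 1640, 1070 and 539 barcodes had at least 2 markers and a UMI of a barred gene, most often Myh11 (947, 763 and 306).

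Genes that the rule did not use placed these cells among mural cells. Pdgfrb, the receptor through which endothelium recruits pericytes, stood at 838, 898 and 1039 CPM in pericytes, against 173, 181 and 103 CPM in fibroblasts and 21.6, 18.7 and 15.5 CPM in the neutrophil gate of the same libraries. Vitronectin (Vtn), a matrix protein made by pericytes, stood at 196, 205 and 318 CPM, against 1.93, 0.965 and 3.00 CPM in fibroblasts. Both separated pericytes from fibroblasts in every library. The muscle intermediate filament desmin (Des) stood at 1129.8, 1045 and 1602 CPM, Mcam (CD146, an adhesion receptor) at 387, 524 and 629 CPM, the proteoglycan Cspg4 (NG2) at 91.7, 145 and 121 CPM, and the receptor Notch3 at 38.3, 58.9 and 54.5 CPM.

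The same genes were set against free RNA, the background of other cells' RNA in every droplet, read here from neutrophil gate barcodes. At a fixed depth of 2000 UMIs per barcode, Pdgfrb was seen in 74.2, 78.9 and 88.5% of CO hydrogel, hydrogel and untreated pericytes, against 3.81, 2.95 and 1.502% of neutrophil gate barcodes. Vtn was seen in 29.7, 31.0 and 46.4% of pericytes against 0, 0.352 and 0.358%. Shares of both genes thus stood far above free RNA, and both were highest in untreated pericytes. Thinning kept 458, 294 and 321 pericytes and left out 100, 49 and 42 shallower ones. Before it, neutrophil gate barcodes had medians of 1729.5, 2157 and 2162 UMIs.

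**Figure D2:**
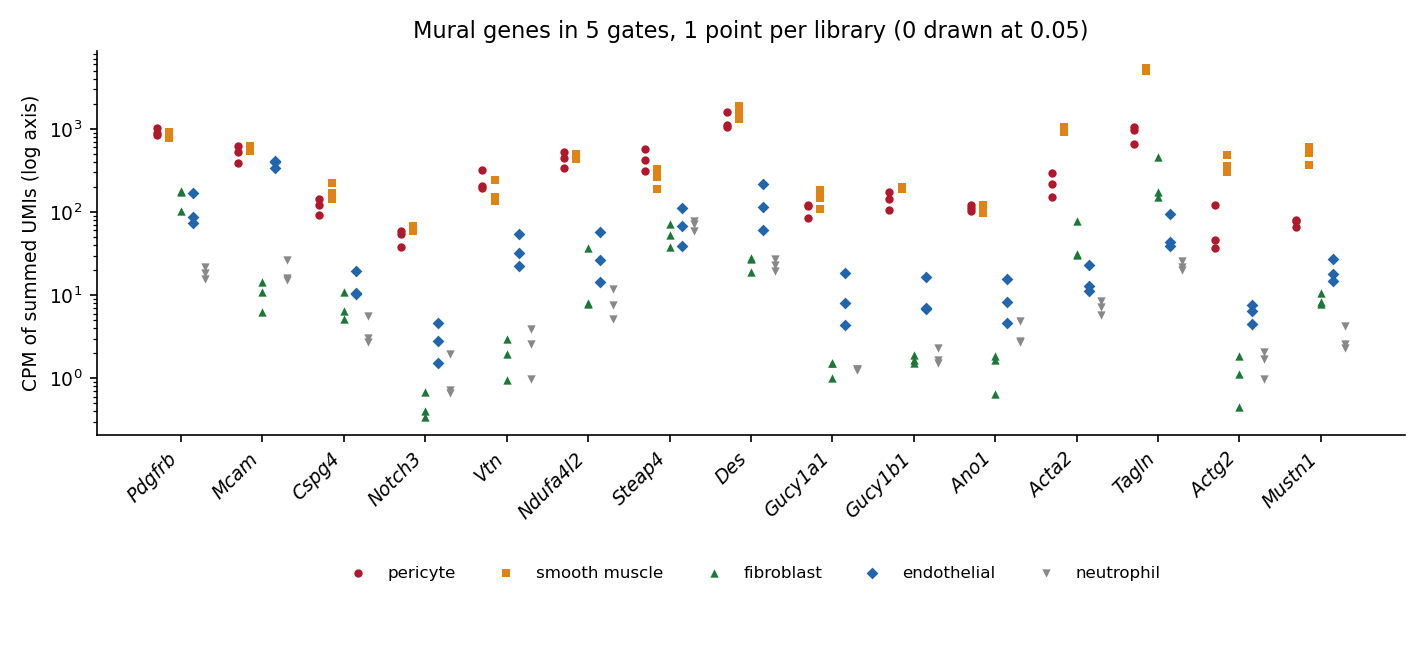
Levels (CPM of summed UMIs, log axis) of 15 mural genes that the pericyte rule did not use, in pericytes and 4 other gates, with 1 point per library. Pericytes and smooth muscle lie together for Pdgfrb and Mcam, and apart for Acta2, Tagln, Actg2 and Mustn1, where smooth muscle is higher in all 3 libraries.

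Pericytes differed little from smooth muscle, taken as the 1263 barcodes with Myh11 and at least 2 of Acta2, Tagln, Cnn1 and Lmod1. With the genes of both rules left out, 13 of 7164 genes (0.181%) were at least 2-fold higher in pericytes in all 3 libraries and 36 (0.503%) at least 2-fold lower. The lower genes included several of the contractile apparatus. Mustn1, a small nuclear protein of muscle, stood at 77.3, 79.4 and 66.4 CPM in pericytes, against 609, 518 and 373 CPM in smooth muscle of the same libraries. Actg2 (smooth muscle gamma actin) stood at 37.3, 46.4 and 122 CPM against 358, 303 and 486 CPM. Phospholamban (Pln), which holds back the calcium pump of the sarcoplasmic reticulum, stood at 2.39, 3.12 and 4.37 CPM against 73.6, 50.8 and 21.0 CPM.

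Of 16 contractile genes measured, 6 were lower in pericytes (Myl9, Tpm2, Actg2, Synpo2, Pln and Sncg) and 0 higher, against 0.503% and 0.181% of all genes. The rules bar Myh11 in pericytes and require it, with other contractile genes, in smooth muscle. Genes that go with these can be lower in pericytes by the choice of barcodes, so this count is a description. The other genes that the naming rule gave as lowest were Ecrg4, Tspan2, Itih3, Net1, Vldlr, Niban1, Fbxl22, Pdlim5, Chmp4c, Dock8 and Sorbs2. Acta2 and Tagln belong to the smooth muscle rule, so their levels are a description: Acta2 stood at 151, 217 and 293 CPM in pericytes against 915, 982 and 1049 CPM, and Tagln at 656, 1057 and 965 CPM against 5373, 5294 and 4946 CPM. No gene of the cGMP, channel, vasoactive receptor, Notch or fibrillar matrix lists was apart from smooth muscle in all 3 libraries.

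Few genes were higher in pericytes than in smooth muscle. Pleiotrophin (Ptn), a heparin-binding growth factor, stood at 259.6, 144 and 77.2 CPM in pericytes against 94.7, 44.8 and 22.4 CPM in smooth muscle, and the chemokine Cxcl14 at 119, 90.6 and 70.5 CPM against 31.0, 35.5 and 12.9 CPM. The others named by the rule were Lgals7, Fxyd3 and Dsp of keratinocytes, S100a8, S100a9 and Stfa2 of neutrophils, Has1, which makes hyaluronan in fibroblasts, and Pdpn, Plac8, Prg4, Slfn2, Gja1 and Fndc1. Of these, Fndc1 and Dsp fell short of 2-fold in 1 library. Within the mural cluster the mean log2 ratio lay below 0 for Lgals7, Fxyd3, Has1, Gja1, Fndc1 and Dsp, and 4 genes were higher and 82 lower. The number higher was 26 without the CO hydrogel library, 30 without the hydrogel library and 42 without the untreated library, and the number lower was 89 without the untreated library.

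The contrast with fibroblasts (6087 barcodes with Pdgfra and at least 2 of Dcn, Lum, Dpt, Sfrp4 and Has1) was wider: 495 of 9592 genes (5.16%) were at least 2-fold higher in pericytes in all 3 libraries and 473 (4.93%) at least 2-fold lower. Of 18 measured identity genes 13 were higher, and 1, the aminopeptidase Anpep, was lower. Of 13 measured genes of the cGMP pathway 10 were higher and 1, the membrane guanylate cyclase Npr2, was lower. Gucy1a1, the alpha subunit of soluble guanylate cyclase, stood at 122, 118 and 84.5 CPM in pericytes against 1.53, 1.53 and 0.999 CPM in fibroblasts. Gucy1b1, the heme-binding beta subunit, stood at 105, 172 and 144 CPM against 1.91, 1.53 and 1.65 CPM. Both subunits were present in pericytes and near 0 in fibroblasts of every library. Phosphodiesterases that break down cGMP were also higher, Pde5a at 56.1, 87.5 and 65.8 CPM and Pde3a at 25.7, 46.9 and 35.2 CPM.

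Genes of vessel tone showed the same contrast. Of 12 measured receptors of vasoactive ligands 7 were higher in pericytes than in fibroblasts and 1 (Adora2b) lower, against 5.16% and 4.93% of all genes. The endothelin A receptor Ednra stood at 162, 188 and 167 CPM against 21.4, 24.1 and 6.44 CPM, and the angiotensin receptor Agtr1a at 107, 87.9 and 139 CPM against 28.8, 19.7 and 29.3 CPM. Of 11 measured channels 5 were higher, Cacna1c, Trpc1, Trpc6, Itpr1 and Ano1, the last a calcium-activated chloride channel at 103, 123 and 112 CPM against 1.86, 1.65 and 0.649 CPM. The naming rule added Pmfbp1, Spink8, the glucose transporter Slc2a4, the sodium pump subunit Atp1b2, the gap junction gene Gja4 (137, 182 and 209.7 CPM against 2.34, 1.76 and 1.60 CPM), Ager, Apold1, Adgrf5 and Rasl11a. The basement membrane collagen Col4a1 stood at 4513, 4999 and 5360.1 CPM against 405, 528 and 316 CPM.

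Fibrillar matrix differed in the other direction, with 8 of 21 genes lower in pericytes than in fibroblasts (Col1a1, Col3a1, Col12a1, Fn1, Postn, Thbs2, Fbn1 and Lox) and 0 higher, against 4.93% and 5.16% of all genes. The protease gene Prss35 stood at 8.55, 10.7 and 1.16 CPM in pericytes against 129, 156 and 42.8 CPM in fibroblasts, and Sox9, the transcription factor of cartilage and hair follicle, at 1.37, 0.893 and 0.582 CPM against 28.9, 29.1 and 7.59 CPM. The other lowest genes included Tnn, Grem1, Crabp1, Mmp13 and Col11a1, followed by Macroh2a2, Cyp11b3, Epha3, Pappa1, B3gnt5, Ereg and Cpxm1. Within the mural cluster 729 genes were lower. Of 18 interferon, 15 antioxidant and 12 proliferation genes measured, 0 were apart in all 3 libraries.

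More genes were higher than lower in pericytes of treated wounds. For CO hydrogel over untreated, 228 of 5709 genes (3.99%) were at least 2-fold higher and 80 (1.4%) at least 2-fold lower, and for hydrogel over untreated 91 of 5296 (1.72%) were higher and 42 (0.793%) lower. Within the mural cluster, 85 were higher and 32 lower for CO hydrogel over untreated, of which 64 and 26 were also called over all pericytes. For hydrogel over untreated 81 were higher and 30 lower there, of which 61 and 23 were also called. Both comparisons share the untreated library.

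Among the genes named by the rule, stromelysin 1 (Mmp3) had the highest ratio over untreated in both treated libraries. It is a secreted protease that cuts proteoglycans, fibronectin and basement membrane and activates other collagenases. Pericytes held 2830, 1685 and 38 Mmp3 UMIs, which is 968, 752 and 11.1 CPM, in the CO hydrogel, hydrogel and untreated libraries. The log2 ratio was 6.45 (5.99 to 6.95) for CO hydrogel over untreated and 6.09 (5.62 to 6.59) for hydrogel over untreated, and 6.57 and 5.87 within the mural cluster. Mmp3 stood at 484, 708 and 5.76 CPM in smooth muscle, 202, 127 and 16.3 CPM in fibroblasts, 16.7, 21.8 and 2.17 CPM in endothelium and 37.0, 11.0 and 8.34 CPM in the neutrophil gate. Pericytes thus held more than each of these gates in both treated libraries, while the untreated values were low in all of them. At 2000 UMIs per barcode 14.8, 17.7 and 0.623% of pericytes had an Mmp3 UMI, against 3.23, 1.67 and 0.167% of neutrophil gate barcodes.

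The untreated Mmp3 value rested on barcode sequences that other libraries also hold. Its 38 UMIs lay in 10 pericytes, and 29 of them lay in 5 pericytes whose barcodes were found in all 3 libraries and carried Mmp3 UMIs in both treated ones. These 5 barcodes had between 886 and 3183 UMIs in the untreated library. Without barcodes found in more than 1 library, Mmp3 stood at 966, 768 and 2.73 CPM, the last from 9 UMIs, with log2 ratios of 8.47 for CO hydrogel and 8.14 for hydrogel over untreated. No other gene named between libraries moved beyond its counting interval in that setting.

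Other members of the family also differed. Stromelysin 2 (Mmp10) had 29, 34 and 0 UMIs (9.92, 15.2 and 0 CPM), and a count of 0 in untreated pericytes allows up to 0.874 CPM, taking 3 counts of that library as the limit. It was therefore at least 11.4-fold higher in CO hydrogel and at least 17.4-fold higher in hydrogel than in untreated pericytes. Macrophage elastase (Mmp12) stood at 41.7, 54.4 and 3.49 CPM in pericytes and 69.4, 69.5 and 24.7 CPM in the neutrophil gate, so its pericyte level lay below that of neutrophils in each library. Gelatinase B (Mmp9) stood at 288, 237 and 78.6 CPM, beside 316, 191 and 144 CPM in the neutrophil gate, with log2 ratios of 1.87 for CO hydrogel and 1.59 for hydrogel over untreated, and 2.21 and 1.78 within the mural cluster. The membrane protease Mmp14 (534, 469 and 301 CPM) and the inhibitors Timp1 (1776, 2308 and 1767 CPM) and Timp3 (605, 627 and 538 CPM) stayed within 2-fold. Timp4, another inhibitor of these proteases, stood at 49.9, 21.9 and 51.8 CPM and was lower with the hydrogel (log2 ratio -1.25 over untreated).

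The genes Mmp3, Mmp10 and Mmp12 have starts that span 108 kb of rat chromosome 8. Their promoters are shown because all 3 were higher in pericytes of both treated libraries. The 250 bases before each start, from RefSeq on GRCr8 (the deposited counts were made on rn6), were searched on both strands for the letters TGANTCA, the site of AP-1 factors such as Fos and Jun, a pattern that reads the same on both strands. Of 33469 rat promoters of the same length 2122 (6.34%) hold it. Each of the 3 holds 1 match, shown in capitals: Mmp3 (chr8:12925031-12925280, plus strand) 71 bases before the start, Mmp10 (chr8:12974457-12974706, plus strand) 61 bases and Mmp12 (chr8:12866402-12866651, plus strand) 87 bases before it.
Mmp3: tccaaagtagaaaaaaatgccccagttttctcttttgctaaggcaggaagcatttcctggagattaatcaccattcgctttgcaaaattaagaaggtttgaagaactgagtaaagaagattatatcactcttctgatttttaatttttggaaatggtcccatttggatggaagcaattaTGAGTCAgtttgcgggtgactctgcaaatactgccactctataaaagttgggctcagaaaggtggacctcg
Mmp10: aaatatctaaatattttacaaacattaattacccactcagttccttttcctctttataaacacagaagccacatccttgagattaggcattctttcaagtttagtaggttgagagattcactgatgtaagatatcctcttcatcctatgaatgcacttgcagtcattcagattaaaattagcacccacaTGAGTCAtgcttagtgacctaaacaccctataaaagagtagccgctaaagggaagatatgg
Mmp12: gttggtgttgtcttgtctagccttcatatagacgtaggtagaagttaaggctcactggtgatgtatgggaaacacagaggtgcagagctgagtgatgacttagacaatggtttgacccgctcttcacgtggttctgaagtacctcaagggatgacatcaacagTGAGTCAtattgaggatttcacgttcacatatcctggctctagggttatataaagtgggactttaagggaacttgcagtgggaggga
Of the 12 Mmp genes with at least 20 UMIs in pericytes 8 had a promoter in the table, and 4 of these hold the letters, the other being Mmp13. A match describes the letters and not binding.

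Matrix genes of the wound bed were the next group. Periostin (Postn), a matricellular protein of granulation tissue, stood at 2279.7, 1529.8 and 116 CPM in pericytes, with log2 ratios of 4.30 (4.15 to 4.45) for CO hydrogel and 3.72 (3.57 to 3.88) for hydrogel over untreated. It was higher in fibroblasts (5580.1, 4480.4 and 1887 CPM) and was also seen in the neutrophil gate (352, 127 and 56.3 CPM). At 2000 UMIs per barcode 50.9, 45.6 and 11.8% of pericytes had a Postn UMI against 28.2, 16.3 and 6.25% of neutrophil gate barcodes, so the pericyte share stood above the free RNA level in every library. Col15a1, a collagen of the vascular basement membrane zone, stood at 481, 588 and 134 CPM (log2 ratios 1.84 and 2.13 over untreated). Igfbp5, which binds insulin-like growth factors, stood at 1494, 1259 and 279.9 CPM (2.42 and 2.17). The ratios of all 3 held within the mural cluster, at 4.33 and 3.90 for Postn, 2.33 and 2.13 for Col15a1, and 1.62 and 2.04 for Igfbp5.

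Of 21 measured genes of fibrillar collagen and wound matrix, 8 were at least 2-fold higher in CO hydrogel than in untreated pericytes, against 6.76% of all genes with at least 20 UMIs, and 5 in hydrogel than in untreated pericytes, against 4.32%. None was at least 2-fold lower in either comparison, against 3.22% and 2.22% of all genes. The list's median log2 ratio, here and below with a 95% order-statistic interval over its genes, which are not replicates, was 0.30 (-0.01 to 1.46) and 0.42 (-0.19 to 0.93), beside 0.03 and 0.06 for all genes. Of the 21, 6 within the mural cluster were at least 2-fold higher in each comparison, against 4.43% and 4.37% of all genes there, with medians of 0.17 and 0.42. With no barred genes, so that barcodes with a UMI of those 4 genes were kept, the medians were -0.35 and -0.25. Col1a1, the main collagen of scar, stood at 12537, 8578 and 4548 CPM and Col3a1 at 11765, 6019 and 5077 CPM. Ccn2, a matricellular target of mechanical and TGF-beta signals, stood at 136, 151 and 61.5 CPM. The CPM of Col1a1, Col3a1 and Ccn2 was lowest in untreated pericytes. Elastin (Eln) stood at 299.6, 32.1 and 3.20 CPM, but at 18.6, 25.2 and 3.07 CPM within the mural cluster, and Thbs2 at 119, 46.0 and 24.2 CPM and 48.1, 33.4 and 21.8 CPM, so their CO hydrogel values lay mostly in pericytes outside that cluster. Of 15 basement membrane genes 2 were higher and 0 lower for CO hydrogel over untreated, with a median of 0.05, and 1 of 13 was higher within the mural cluster.

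**Figure D3:**
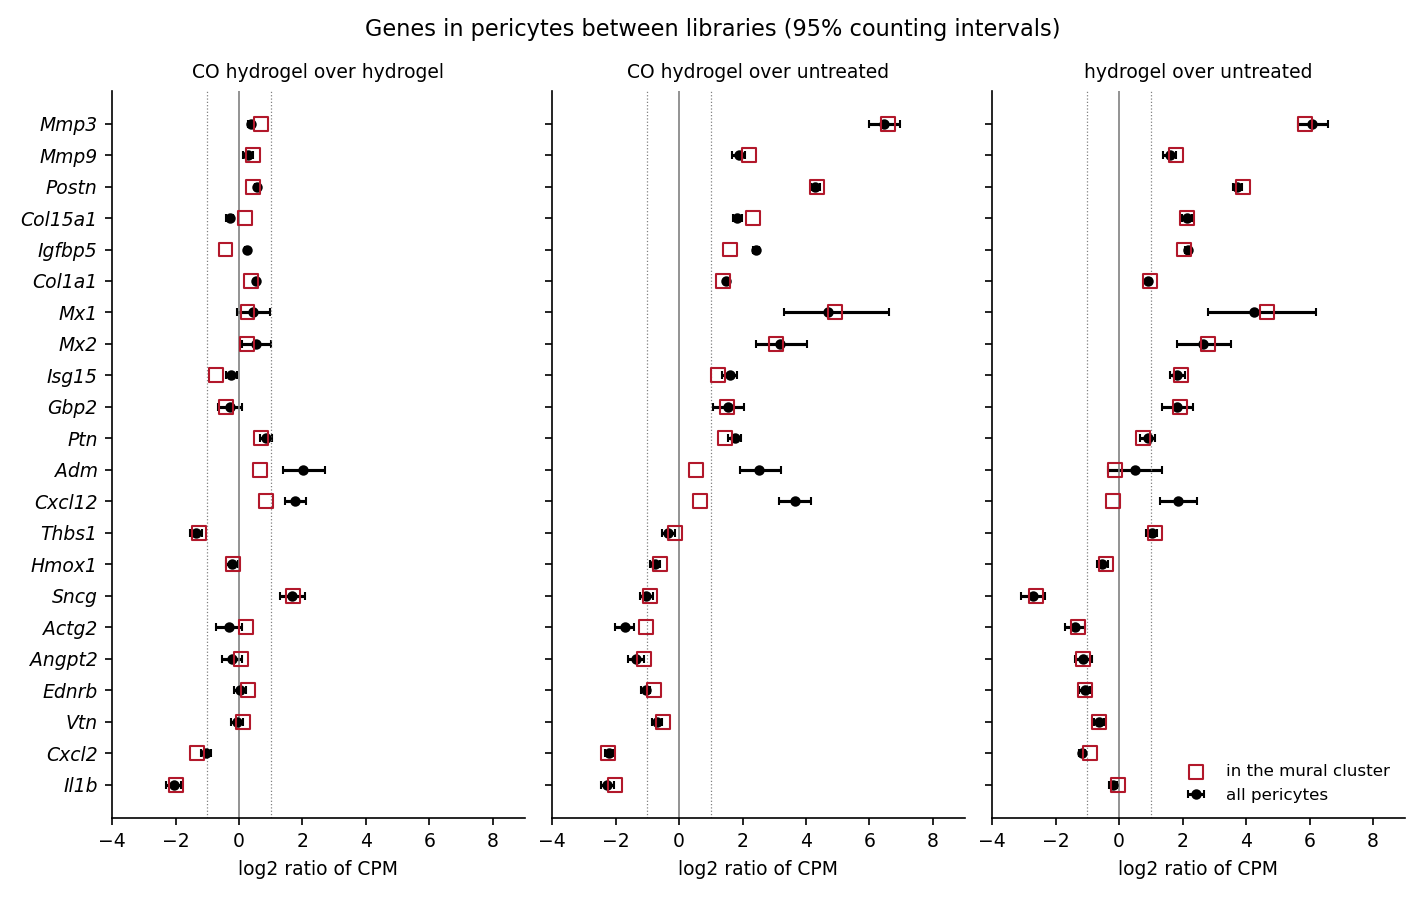
Log2 ratios of CPM between libraries for 22 genes in pericytes, for CO hydrogel over hydrogel, CO hydrogel over untreated and hydrogel over untreated; black points are all pericytes with 95% counting intervals, red squares pericytes in the mural cluster, and dotted lines mark 2-fold. Mmp3 lies at 6.45 and 6.09 in the panels over untreated and at 0.36 between the treated libraries, while for Adm and Cxcl12 the mural cluster squares lie within 2-fold in every panel.

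Many interferon response genes, part of the antiviral programme that cells switch on through Stat2 and Irf factors, were higher in pericytes of both treated wounds. Of 18 measured genes 9 were at least 2-fold higher in CO hydrogel than in untreated pericytes (Isg15, Ifit2, Irf7, Stat2, Mx1, Mx2, Oas1a, Gbp2 and Rtp4) and 8 in hydrogel than in untreated pericytes (Isg15, Ifit2, Irf7, Mx1, Mx2, Psmb9, Gbp2 and Rtp4), with 0 lower in either. Of all genes with at least 20 UMIs, 6.76% and 4.32% were higher and 3.22% and 2.22% lower. Within the mural cluster 7 and 10 of 18 were higher, against 4.43% and 4.37% of all genes there. The median log2 ratio was 1.05 (0.25 to 1.58) and 0.87 (0.26 to 1.74), and 0.74 and 1.14 within the mural cluster. For CO hydrogel over hydrogel 0 of 18 were at least 2-fold apart, against 4.65% higher and 2.51% lower over all genes with at least 20 UMIs, with a median of 0.28 (-0.25 to 0.53). Mx1, a GTPase that blocks viruses, had 89, 50 and 4 UMIs (30.4, 22.3 and 1.16 CPM), with log2 ratios of 4.71 (3.30 to 6.61) for CO hydrogel and 4.26 (2.81 to 6.19) for hydrogel over untreated. Mx2 stood at 42.1, 29.0 and 4.66 CPM, and Isg15, a ubiquitin-like modifier, at 181, 213 and 59.7 CPM. Ifi27l2b, named by the rule, stood at 1549, 959 and 366 CPM, highest with the CO hydrogel.

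Free RNA was measured beside these genes. In the neutrophil gate Mx1 stood at 67.1, 45.5 and 9.61 CPM and Isg15 at 491, 1244 and 940.2 CPM, above the pericytes of the same library, while Mx2 at 23.6, 14.5 and 2.77 CPM lay below them. The order of the libraries was the same in both gates for Mx1 and Mx2 and differed for Isg15, and the part of free RNA in the pericyte values was not tested. Irf1, a transcription factor of the interferon gamma response, was level in pericytes at 361, 365 and 379 CPM.

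The promoters of 3 called interferon genes, all of them with a match, are shown to place the list beside its known element. The core of the interferon-stimulated response element (ISRE), GAAA and a second GAAA after any 2 bases, was searched on both strands in the 250 bases before each start, and 1140 of 33469 rat promoters (3.41%) hold it. Of the 22 listed genes 16 had a promoter in the RefSeq table and 10 of these hold a match (Bst2, Gbp2, Gbp4, Ifi27, Ifit3, Ifitm3, Irf7, Oas1a, Rsad2 and Tap1). The promoters of Irf1, Irf9, Mx1, Psmb8, Psmb9 and Stat2 hold none, and of these Mx1, Stat2 and Psmb9 were called over untreated. Capitals mark the matches. Gbp2 (chr2:234005477-234005726, plus strand) has a match on the opposite strand 31 bases before the start, Oas1a (chr12:41330216-41330465, plus strand) has 2 overlapping matches, the first 41 bases before it, and Irf7 (chr1:205800024-205800273, minus strand) has a match on the opposite strand 69 bases before it.
Gbp2: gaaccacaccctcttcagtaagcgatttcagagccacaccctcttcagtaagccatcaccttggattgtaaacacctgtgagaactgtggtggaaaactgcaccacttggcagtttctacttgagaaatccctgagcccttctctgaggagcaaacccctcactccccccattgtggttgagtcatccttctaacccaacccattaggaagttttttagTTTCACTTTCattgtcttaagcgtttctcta
Oas1a: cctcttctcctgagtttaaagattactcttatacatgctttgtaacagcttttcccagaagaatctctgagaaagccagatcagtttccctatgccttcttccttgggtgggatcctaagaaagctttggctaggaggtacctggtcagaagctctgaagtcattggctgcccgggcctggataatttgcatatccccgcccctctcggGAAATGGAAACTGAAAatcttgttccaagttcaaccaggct
Irf7: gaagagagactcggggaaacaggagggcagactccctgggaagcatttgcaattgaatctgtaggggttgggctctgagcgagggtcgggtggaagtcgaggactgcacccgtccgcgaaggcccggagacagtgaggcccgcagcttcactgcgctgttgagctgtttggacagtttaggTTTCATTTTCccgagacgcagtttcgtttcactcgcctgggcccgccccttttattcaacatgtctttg
Gbp2, a guanylate-binding protein, stood at 45.1, 54.9 and 15.4 CPM in pericytes, Oas1a, which senses double-stranded RNA, at 17.4, 10.3 and 5.82 CPM and Irf7 at 7.52, 8.93 and 3.49 CPM. For Irf1 and Mx1, among others, the lack of a match says only that the letters are not in this window.

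Chemokine genes differed in both directions. Ccl20, the ligand of Ccr6, had 97, 106 and 11 UMIs (33.2, 47.3 and 3.20 CPM) in pericytes, with log2 ratios of 3.37 for CO hydrogel and 3.88 for hydrogel over untreated. Cxcl6, a neutrophil attractant, had 106, 114 and 6 UMIs (36.3, 50.9 and 1.75 CPM), with log2 ratios of 4.37 and 4.86. Both were close to 0 in untreated pericytes, and their ratios were 3.48 and 4.05, and 4.55 and 4.65, within the mural cluster. Cxcl2, a neutrophil attractant, was lowest with the CO hydrogel at 199, 412 and 926 CPM, as were Cxcl3 at 164, 233 and 561 CPM and the cytokine Il1b at 75.2, 314 and 359 CPM. In the neutrophil gate Cxcl2 stood at 6506, 13288 and 42794 CPM, Cxcl3 at 1870.3, 3259 and 26480 CPM and Il1b at 6570.0, 10079.9 and 16574 CPM. The order of the libraries was the same there, and the part of free RNA in the pericyte values was not tested.

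Of the other chemokines, Cxcl1 stayed within 2-fold at 8046, 9373 and 8380.4 CPM, as did Ccl2 at 3366, 2173 and 2794 CPM and Il6 at 569.8, 534 and 718 CPM. For Ccl2 the share of pericytes with a UMI at 2000 UMIs was 66.8, 53.7 and 67.3%, against 71.0, 48.3 and 50.5% of neutrophil gate barcodes. It was thus no higher than in that gate in the CO hydrogel library. The macrophage marker C1qa was seen in 38.7, 20.5 and 12.1% of neutrophil gate barcodes. For Ccl2, free RNA and RNA of the gate's own cells therefore cannot be told apart. Of 19 chemokine and cytokine genes measured, 5 were at least 2-fold higher and 4 lower for CO hydrogel over untreated, against 6.76% and 3.22% of all genes, with a median of 0.26 (-0.99 to 1.26). In that pair 2 were higher and 6 lower within the mural cluster, against 4.43% and 2.03%, and the median was -0.25. For hydrogel over untreated 6 were higher and 2 lower, against 4.32% and 2.22% of all genes, and 5 and 1 within the mural cluster, against 4.37% and 1.85%. Cxcl12, a stromal attractant, stood at 134, 39.3 and 10.8 CPM but at 17.6, 9.77 and 11.3 CPM within the mural cluster.

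Genes that act between pericytes and endothelium were split. Angiopoietin 2 (Angpt2), an antagonist of the endothelial receptor Tek that loosens vessels, stood at 61.2, 71.9 and 157 CPM in pericytes. Its log2 ratio was -1.36 (-1.61 to -1.11) for CO hydrogel and -1.13 (-1.39 to -0.87) for hydrogel over untreated, and -1.10 and -1.15 within the mural cluster. The endothelin B receptor (Ednrb) stood at 175, 171 and 364 CPM, with log2 ratios of -1.06 and -1.09 (-0.79 and -1.06 in the mural cluster), and at 161, 165 and 349 CPM in smooth muscle. Both genes were lower in treated than in untreated pericytes, while Ednra was level at 162, 188 and 167 CPM. The growth factor Ptn had log2 ratios of 1.75 for CO hydrogel and 0.90 for hydrogel over untreated, the second short of 2-fold, and 1.45 and 0.75 within the mural cluster.

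The wider list of vessel growth signals depended on where pericytes lay. Of 25 genes measured for CO hydrogel over untreated 11 were at least 2-fold higher and 1 lower, against 6.76% and 3.22% of all genes, with a median of 0.90 (-0.31 to 1.24), but the median was 0.15 within the mural cluster, where 4 of 18 were higher and 1 lower, against 4.43% and 2.03%. Midkine (Mdk), the relative of Ptn, stood at 58.8, 37.9 and 0.582 CPM over all pericytes and 9.52, 5.14 and 0.341 CPM in the mural cluster, beside 326, 485 and 109.5 CPM in fibroblasts. Adrenomedullin (Adm), a vasodilator peptide of the hypoxia list, stood at 43.8, 10.7 and 7.57 CPM over all pericytes and 11.4, 7.20 and 7.84 CPM in the mural cluster, beside 111, 124 and 125 CPM in fibroblasts. For both genes the CO hydrogel level lay mostly outside the mural cluster. For hydrogel over untreated 2 of 20 genes were higher and 1 lower, against 4.32% and 2.22% of all genes.

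The medians of identity and contractile genes lay slightly below 0 for treated over untreated pericytes. The identity list had a median of -0.39 (-0.51 to -0.01) for CO hydrogel over untreated, with 2 of 20 genes at least 2-fold higher and 1 lower, near the 6.76% and 3.22% of all genes, and of -0.20 (-0.33 to 0.12) for hydrogel over untreated, with 0 apart. Within the mural cluster the medians were -0.12 and -0.23. Contractile genes had medians of -0.35 (-0.70 to -0.12) and -0.12 (-0.41 to -0.01), with 2 of 20 at least 2-fold lower and 0 higher in each, against 3.22% and 2.22% lower over all genes. They had medians of -0.10 and -0.11 within the mural cluster, and of 0.06 and 0.17 with no barred genes. The 2 genes were Actg2 (37.3, 46.4 and 122 CPM) and gamma-synuclein (Sncg), a leading gene of the mural cluster, at 98.2, 30.8 and 200.1 CPM. Sncg also differed between the treated libraries, with a log2 ratio of 1.67 for CO hydrogel over hydrogel and 1.71 within the mural cluster. Acta2 stood at 151, 217 and 293 CPM, with log2 ratios of -0.95 and -0.43 over untreated, short of 2-fold.

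**Figure D4:**
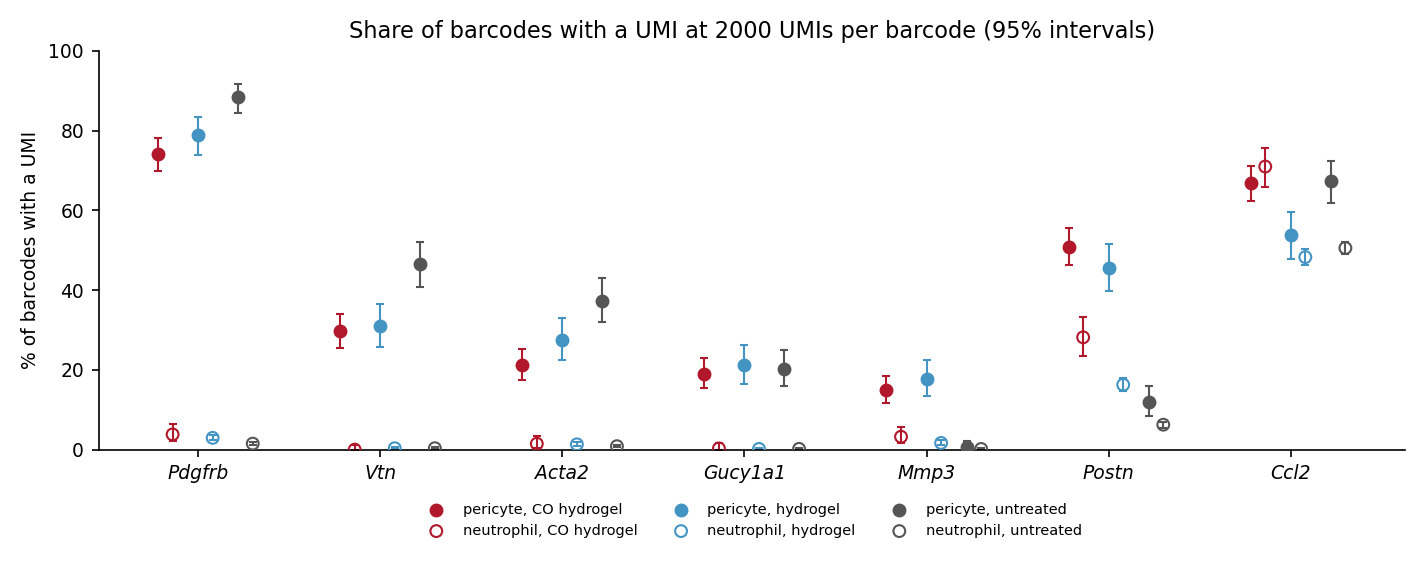
Share of barcodes with a UMI of 7 genes after each barcode was thinned to 2000 UMIs, in pericytes (filled) and in the neutrophil gate (open) of the CO hydrogel, hydrogel and untreated libraries; bars are 95% exact binomial intervals. Mmp3 is seen in 14.8, 17.7 and 0.623% of pericytes, Vtn in 29.7, 31.0 and 46.4%, and Ccl2 in 66.8, 53.7 and 67.3% of pericytes and 71.0, 48.3 and 50.5% of neutrophil gate barcodes.

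Genes tied to carbon monoxide were examined because the hydrogels differ in its release. Of 13 genes of soluble guanylate cyclase and cGMP, 1 (the natriuretic peptide receptor Npr1) was at least 2-fold higher for CO hydrogel over hydrogel and 0 lower. Of all genes 4.65% were higher and 2.51% lower, so these counts were near that share. The list had a median of -0.40 (-0.71 to 0.12) and -0.10 within the mural cluster. Gucy1a1 stood at 122 and 118 CPM in CO hydrogel and hydrogel pericytes. Gucy1b1 stood at 105 and 172 CPM, a log2 ratio of -0.71 (-0.93 to -0.49), short of 2-fold. For hydrogel over untreated 10 of 12 genes of the list lay above 0, against 5259 of all 9345 genes, with a median of 0.38 (0.16 to 0.62). In that pair 0 were at least 2-fold higher and 1 (Pde2a) lower, against 4.32% and 2.22% of all genes.

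Carbon monoxide also binds cytochrome oxidase, the end of the respiratory chain. Respiratory chain genes had a median of -0.02 (-0.09 to 0.07) for CO hydrogel over hydrogel, -0.24 (-0.32 to -0.06) for CO hydrogel over untreated and -0.21 (-0.27 to -0.14) for hydrogel over untreated, with 0 of 22 at least 2-fold apart in any pair. Over all genes 4.65, 6.76 and 4.32% were at least 2-fold higher and 2.51, 3.22 and 2.22% lower in these pairs. A count of 0 of 22, or of 0 of 15 for the antioxidant genes below, is near those shares. Heme oxygenase 1 (Hmox1), the inducible enzyme that makes carbon monoxide in cells, stood at 156, 183 and 264 CPM in pericytes, with 0 of 15 antioxidant genes apart in any pair. In the neutrophil gate Hmox1 stood at 868, 1300.2 and 1430.1 CPM, in the same order of libraries.

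Between CO hydrogel and hydrogel pericytes 135 of 5182 genes (2.61%) were at least 2-fold higher and 38 (0.733%) lower. Within the mural cluster 16 were higher and 32 lower, of which 9 and 17 were also called over all pericytes. The higher genes named by the rule were Clec3b, Sult1a1, Ntrk2, Akr1c14, Igfbp6, Tgfbr3, Cryab, Pcsk5, Aspn and Thbs3. Clec3b, a plasminogen-binding protein, stood at 33.2 and 5.36 CPM in CO hydrogel and hydrogel pericytes (log2 ratio 2.63, in the mural cluster 1.06). Igfbp6 stood at 535 and 143 CPM (1.90, in the mural cluster 0.50) and the TGF-beta co-receptor Tgfbr3 at 209 and 57.1 CPM (1.87, in the mural cluster 1.08). In fibroblasts of the same libraries Clec3b stood at 52.4 and 23.7 CPM, Igfbp6 at 1190.0 and 624 CPM and Tgfbr3 at 359 and 221 CPM, above the pericytes in each case.

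Of these 10 genes Sult1a1, a sulfotransferase, kept a ratio above 4-fold within the mural cluster. It stood at 43.4, 8.03 and 5.53 CPM in pericytes, with a log2 ratio of 2.43 (1.72 to 3.24) for CO hydrogel over hydrogel and 2.19 within the mural cluster. In the other gates it stood at 26.9, 4.23 and 8.47 CPM in smooth muscle, 38.7, 13.96 and 6.84 CPM in fibroblasts, 46.6, 11.5 and 14.2 CPM in endothelium and 12.8, 0.722 and 0.356 CPM in the neutrophil gate. Its level was thus highest with the CO hydrogel in each of these gates.

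The naming rule also gave 10 genes that were lower in CO hydrogel than in hydrogel pericytes. Thrombospondin 1 (Thbs1), an inhibitor of vessel growth that activates TGF-beta, stood at 107, 274 and 135 CPM, with a log2 ratio of -1.36 (-1.56 to -1.16) for CO hydrogel over hydrogel and -1.26 in the mural cluster. Follistatin (Fst), which binds activins, stood at 19.8, 46.9 and 11.1 CPM. The activin subunit Inhba, which the rule named for hydrogel over untreated, stood at 205, 415 and 154 CPM. All 3 were highest with the hydrogel. Inmt, an indole methyltransferase, stood at 10.9, 43.7 and 28.8 CPM, and Fbxo32, a ubiquitin ligase of muscle wasting, at 118, 262 and 151 CPM. Trib1, Tedc1, Cdkn3, Glod5, Fstl3 and Evl completed the 10 named.

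Early response and heat shock genes, which warm dissociation can raise, are given beside these. For CO hydrogel over hydrogel 16 of 19 lay below 0, against 4960 of all 9308 genes, with a median of -0.38 (-0.71 to -0.16) and 0 at least 2-fold apart. For hydrogel over untreated 16 of 19 lay above 0, against 5259 of all 9345 genes, with a median of 0.30 (0.07 to 0.63). Fos stood at 3185, 5387 and 3781 CPM and Jun at 2169, 3796 and 2451 CPM, highest with the hydrogel. Their part in the other differences was not tested.

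Proliferation genes also depended on where pericytes lay. For CO hydrogel over untreated 10 of 14 were at least 2-fold lower, against 3.22% of all genes, with a median of -1.23 (-2.15 to -0.64), and Mki67, a protein of cycling nuclei, stood at 30.1, 59.8 and 65.5 CPM. Of the pericytes 5, 12 and 22 lay in a cluster led by the mitotic genes Ube2c, Cenpf and Top2a. Within the mural cluster Mki67 stood at 12.4, 10.8 and 7.50 CPM and the median was 0.13 over 9 genes, of which 1 was lower, against 2.03%. The lower genes named by the rule for CO hydrogel over untreated were Ube2c, Spc24, Birc5, Gprc5a, Cdkn3, Polr3g, H1f5, Cenpw, Cdk1 and Rrm1, most of them genes of the cell cycle. Of the higher genes named there and not yet given, Cdkn1c, Gsn, Tgfbr3 and Ccdc80 had log2 ratios of 2.3, 1.99, 1.92 and 1.83, which were 0.35, 0.95, 0.69 and 0.49 in the mural cluster.

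The remaining genes named for hydrogel over untreated, Krt5 and Ube2c aside, changed less with the cluster. PCOLCE2, an enhancer of procollagen processing, stood at 52.7, 82.6 and 16.02 CPM (log2 ratio 2.37 for hydrogel over untreated and 2.95 in the mural cluster). Rgs2, which dampens signals of Gq proteins, stood at 83.1, 116 and 41.6 CPM, the cadherin Cdh11 at 31.1, 30.8 and 11.4 CPM and Parp14 at 55.8, 59.8 and 22.4 CPM. All 4 were lowest in untreated pericytes. Stfa3 stood at 81.1, 233 and 35.8 CPM in pericytes and 1215, 190.5 and 104 CPM in the neutrophil gate, and is also a leading gene of the keratinocyte cluster. Lower with the hydrogel were the calcium-binding proteins S100a4 (1036, 515 and 1287 CPM) and S100b, the apolipoprotein Apod, the collagen chain Col4a4, the peptide gene Npw (22.9, 20.5 and 52.7 CPM), Timp4, Gprc5a, Kif22, Ube2c and Krt5. Krt5, a keratin of basal epidermis, had a log2 ratio of -1.48 over all pericytes and 0.90 in the mural cluster.

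Medians of the other lists lay between -0.30 and 0.20. Hypoxia and glycolysis genes had medians of -0.26, -0.19 and 0.02 for CO hydrogel over hydrogel, CO hydrogel over untreated and hydrogel over untreated. Notch pathway genes had medians of -0.17, 0.05 and 0.20 with 0 of 9 at least 2-fold apart in any pair. Over all genes 4.65, 6.76 and 4.32% were higher and 2.51, 3.22 and 2.22% lower, so a count of 0 in a short list is near those shares. Potassium and calcium channels had medians of 0.01, -0.09 and 0.06, receptors of vasoactive ligands of -0.06, -0.30 and -0.06, and adhesion and junction genes of -0.28, -0.13 and 0.10. Of 16 adhesion and junction genes 5 (Vcam1, Cdh11, Gja1, Itga4 and Itga8) were at least 2-fold higher for CO hydrogel over untreated, against 6.76% of all genes, and 4 within the mural cluster, against 4.43%. For hydrogel over untreated Cdh11 and Itga8 were higher, and 0 of 16 were lower in any pair.

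**Figure D5:**
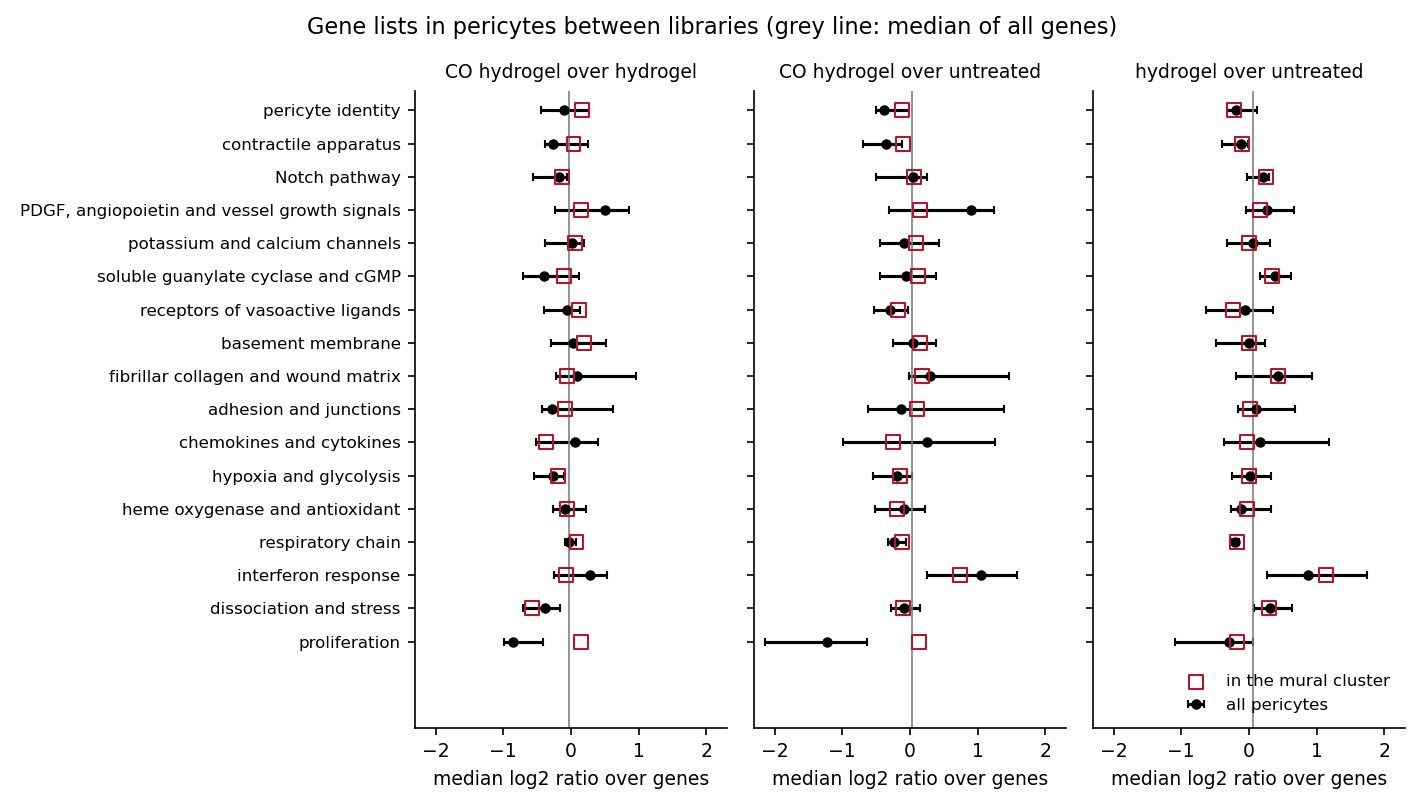
Median log2 ratio of 17 gene lists in pericytes for CO hydrogel over hydrogel, CO hydrogel over untreated and hydrogel over untreated; black points are all pericytes with 95% order-statistic intervals over genes, red squares pericytes in the mural cluster, and grey lines the median of all genes. The interferon list lies at 1.05 and 0.87 over untreated and at 0.28 between the treated libraries, and the proliferation list lies at -1.23 over all pericytes and at 0.13 in the mural cluster for CO hydrogel over untreated.

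Pericytes also varied among themselves. Clustered alone they formed 11 groups, described by their leading genes and by levels that the grouping itself used. A group of 294 barcodes was led by Timp4, Agt and Fabp4 and held 929 CPM of the metalloreductase Steap4, 511 CPM of Vtn, 6149 CPM of Ccl2, 415 CPM of Ednrb and 184 CPM of Angpt2. A group of 138 was led by Mmp3, Mmp12, Col15a1 and PCOLCE2, with 3150.1 CPM of Mmp3, 5141 CPM of Postn and 1019.7 CPM of Inhba. It held 8.28 CPM of Vtn and 57.9 CPM of Steap4, while Pdgfrb stood at 828 CPM and Rgs5 at 592 CPM. In these groups 293 and 137 members lay in the mural cluster. The grouping used such levels, so their difference between groups is a description. The Timp4 group held 89 CO hydrogel, 48 hydrogel and 157 untreated pericytes, and the Mmp3 group 72, 55 and 11. A split among pericytes and a difference between libraries were therefore not told apart.

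The other groups were of several kinds. A group of 188 led by Polr3g, Spink8, Acta2 and Cox4i2 had 401 CPM of Acta2 and 1485 CPM of Rgs5, and a group of 189 led by Txnip and Col4a4 had a median of 2737 UMIs and 1583 CPM of Rgs5. Interferon genes led 59 barcodes (287 CPM of Mx1 and 1056 CPM of Isg15), early response and heat shock genes 98 barcodes (6739.8 CPM of Jun and 1401 CPM of Hspa1b), and Fst, Tppp3 and Thbs1 48 barcodes (862 CPM of Thbs1 and 381 CPM of Rgs5). The last 4 groups were led by genes of other cells: 39 barcodes by Gpihbp1 and Plvap of endothelium, 83 by Pi16 and Sfrp4 of fibroblasts, 58 by Lgals7 and Krt17 of keratinocytes beside mitotic genes, and 70 by Slpi, C1qb and G0s2 of leukocytes. Of these, 6, 0, 10 and 49 lay in the mural cluster. Group sizes by library are given only for the Timp4 and Mmp3 groups and are not compared, since the genes that lead the groups differ between libraries.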

How the data were processed

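Single cells of 3 diabetic rat wounds were profiled with 10x Genomics 3' chemistry. The deposited UMI counts per gene (32883 features) were made by the authors with Cell Ranger 6.0.1, per the file headers. The tools listed in the submitters' processing notes are Cell Ranger (there 7.0.0), Seurat (4.2.0) and DESeq (1.38.0), and the build is rn6. The files hold raw counts of called cells, 109718517, 109148721 and 78233883 UMIs in the CO hydrogel, hydrogel and untreated libraries. PCR duplicates are merged by UMI, so intervals cover counting error only.

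Barcodes were filtered and gated by detected genes as the report states, the endothelial gate needing a UMI of at least 2 of 6 endothelial genes and no UMI of Ptprc, Pdgfra or Myh11. Counts were summed per gate and library, scaled to CPM, and compared as log2 ratios with exact conditional binomial intervals. Shares have Clopper-Pearson intervals. Calls were at least 2-fold, with at least 100 UMIs over both libraries between libraries, 20 for lists, and 50 per library between gates. With 1 library per group no p-value was computed. All barcodes were clustered with scanpy 1.11.5 (2000 variable genes, 30 components, 20 neighbours, Leiden resolution 1), and pericytes alone with 1000 genes, 20 components, 15 neighbours and resolution 0.8. Doublets were scored with Scrublet and kept, with the top 0.8% per 1000 barcodes removed as an alternative; these held 53, 28 and 31 pericytes, while Scrublet's own threshold marked 0 barcodes in the untreated library and so did not work there. The steps were tested on simulated data.

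Genes named between libraries were the 10 highest and 10 lowest log2 ratios per pair with at least 100 UMIs and a UMI in at least 5% of pericytes of 1 library, without genes of mitochondria, ribosomes, hemoglobin or immunoglobulin and without any gene whose CPM in another gate was over 5 times higher. Against other gates they were the 15 higher and 15 lower genes that differed the same way in every library, ranked by their smallest ratio. Members of 27 fixed lists (404 genes) could also be named; 10 listed genes, Hspa1a, Col1a2 and Hspg2 among them, were not analysed here, and some named genes are not reported here. The members and lists were chosen with earlier results of these data known. Promoters came from RefSeq on GRCr8. Python 3.11.15, numpy 2.4.6, scipy 1.17.1, pandas 2.3.3, igraph 0.11.9, matplotlib 3.10.9, R 4.3.3 and, for TMM factors as an alternative, edgeR 4.0.16 were used.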

Additional observations from a re-analysis of the deposited data

How the results depend on the processing

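With 1 library per group no difference has a replicate check, and animal, library and treatment cannot be told apart. No paired analysis was possible because each group has 1 library and no result comes from a test. Values below are in the order CO hydrogel, hydrogel, untreated. The settings that leave out barcodes shared between libraries, and the mural cluster for shares, ratios and the fibroblast contrast, were chosen after seeing the data. For the changes below the cause was not tested. Of 163 alternative values of shares, ratios and counts of genes 103 stayed close and 60 moved, of 510 list medians 494 stayed close and 16 did not, and of 1184 values of named genes 973 stayed close, 200 moved and 11 of genes at least 2-fold apart turned sign. Of all list medians 73 had the other sign under an alternative, 4 of them where the main interval excluded 0 and 64 within a main interval that held 0.

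The pericyte share was 2.59%, 1.81% and 2.72% with at least 3 markers, 4.22%, 3.32% and 3.54% with the gate set at 1000 UMIs, 5.07%, 4.32% and 5.87% at 2000 UMIs (of barcodes of that depth), and 14.7%, 9.85% and 7.54% with no barred genes. It was 2.91% and 2.15% in the CO hydrogel and hydrogel libraries within the mural cluster, 3.91% in the untreated library under the stricter cell filter, and 3.32% and 7.91% of barcodes outside the neutrophil gate in the hydrogel and untreated libraries. Pericytes per endothelial barcode were 0.685, 0.749 and 1.86 at 2000 UMIs, 0.344 and 0.346 in the CO hydrogel and hydrogel libraries with at least 3 markers, and in the CO hydrogel library 0.570 under the stricter filter and 0.391 in the mural cluster. Per smooth muscle barcode they were 1.87, 1.68 and 5.46 at 2000 UMIs, 0.711 and 0.529 with at least 3 markers, and 0.798 in the CO hydrogel library in the mural cluster. Both ratios were highest in the untreated library under every alternative run for them. The setting with no barred genes, in which the untreated share was lowest, was not run for the ratios.

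Counts of genes apart between libraries moved most with no low-count minimum. For CO hydrogel over hydrogel, 36 were higher with at least 3 markers, 16 in the mural cluster, 2126 with no minimum and 252 with no barred genes, and 63 were lower with every cell weighted equally, 1651 with no minimum and 189 with no barred genes. For CO hydrogel over untreated, 94, 85, 2510 and 608 were higher with at least 3 markers, in the mural cluster, with no minimum and with no barred genes, and 32, 1481 and 198 lower in the last 3. For hydrogel over untreated, 2100 and 399 were higher and 825 and 123 lower with no minimum and with no barred genes. Against smooth muscle, 20 were higher under the stricter filter, 42 at 2000 UMIs, 4 in the mural cluster, 27 with a minimum of 20 UMIs and between 26 and 42 with 1 library left out. There 68 were lower at 2000 UMIs, 82 in the mural cluster, 57 with a minimum of 20 UMIs and between 42 and 89 with 1 library left out. Against fibroblasts 729 were lower in the mural cluster, and with 1 library left out between 561 and 641 were higher and between 560 and 704 lower.

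List medians whose main interval excluded 0 turned sign for the contractile list with no barred genes (0.062 for CO hydrogel and 0.17 for hydrogel over untreated) and for proliferation in the mural cluster (0.15 for CO hydrogel over hydrogel and 0.13 over untreated). Others that turned sign, from an interval that held 0, were proliferation at 2000 UMIs (0.27 for hydrogel over untreated), fibrillar matrix with no barred genes (-0.35 for CO hydrogel and -0.25 for hydrogel over untreated) and the respiratory chain for CO hydrogel over hydrogel (0.081 in the mural cluster and 0.11 with equal weights). At 2000 UMIs the proliferation median was -0.33 for CO hydrogel over untreated, and the Notch median -0.061 for CO hydrogel over hydrogel. With no barred genes the Notch median 0.32 and the respiratory chain median -0.079 for hydrogel over untreated, and the antioxidant median -0.36 for CO hydrogel over hydrogel. The respiratory chain median was also -0.30 with TMM factors for hydrogel over untreated. The contractile median was -0.10 in the mural cluster for CO hydrogel over untreated. Genes at least 2-fold apart that turned sign were Stfa3 (-0.0040 with at least 3 markers) and Krt5 (0.90 in the mural cluster) for hydrogel over untreated, Ube2c (0.14 at 2000 UMIs for hydrogel over untreated, 0.13 in the mural cluster for CO hydrogel over untreated) and Cdk1 (0.029 in the mural cluster for CO hydrogel over untreated). Against smooth muscle in the mural cluster they were Lgals7 (-0.12), Fxyd3 (-0.97), Has1 (-0.29), Gja1 (-0.30), Fndc1 (-0.43) and Dsp (-0.041).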
